A study of Mus musculus with 8 samples.

Results

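Fgf21, Gdf15, Ostn, Adm2 and Adm encode secreted peptide hormones that heart and other tissues can release under stress. They were followed as a set of 5 genes out of 13227 genes with deposited counts, of which 13226 were tested and all 5 passed the low-count filter. The genes were chosen by their levels in the same comparison of hearts, so the difference between groups in these 5 genes is given as a description and without a test. Fgf21, Gdf15, Ostn and Adm2 stood higher in every transgenic heart than in any non-transgenic heart, and Adm did not.

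The study measured gene expression by RNA sequencing in hearts of FVB/N mice at 3 months of age, all labelled male. Of the 8 libraries, 4 came from mice that carry a transgene for FASTKD1, lettered A, B, C, E in the titles, and 4 from non-transgenic mice of the same strain, lettered A, B, D, E. Values of single hearts are given in this order of letters. The transgene, described as cardiac-specific in the title of the series, overexpresses FASTKD1, which belongs to a family of mitochondrial proteins that act on RNA. The promoter that drives it and the number of founder lines are not given in the sources used here, and the labels do not say whether each library is a separate animal, so errors and p-values measure the spread between libraries.

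FGF21 is an endocrine fibroblast growth factor that signals through FGF receptors with the co-receptor beta-klotho, and GDF15 is a distant member of the TGF-beta family that signals to the brain through GFRAL and the kinase RET. Ostn encodes osteocrin, also called musclin, a peptide of muscle and bone that binds the natriuretic peptide clearance receptor NPR3. ADM2 (intermedin) and ADM (adrenomedullin) are peptides of the calcitonin family that dilate vessels through the receptor CALCRL with RAMP partners. In other settings Fgf21, Gdf15 and Adm2 are known targets of the stress factors ATF4 or CHOP, and Adm is known as a target of hypoxia-inducible factors.

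Libraries held 44584359 to 55769859 counts in transgenic hearts and 45802079 to 50830215 in non-transgenic hearts. Fastkd1 itself stood at 8845 to 11516 CPM (counts-per-million, with library sizes scaled by TMM in edgeR) in transgenic hearts and at 26.3 to 33.8 CPM in all but 1 of the non-transgenic hearts. The library labelled non-transgenic D stood apart, with 192 CPM of Fastkd1 and with 0 counts over 4 Y-linked genes, where the other 7 libraries had 10372 to 15914. The 0 Y-linked counts go against the male label of that library, and its place in the non-transgenic group rests on its label. All 10 cardiomyocyte markers were present in both groups. Atrial marker genes varied widely, with 8 of 10 markers measured and summed levels of 58.4 to 3312 CPM in transgenic hearts and 62.9 to 655 CPM in non-transgenic hearts. Transgenic heart A and non-transgenic heart D were the highest of their groups, and the values of the hormone genes are also given without them.

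The windows upstream of the hormone genes are shown because members that stand high together may share promoter letters. They run from 250 bases before the annotated start to the base before it, are taken from RefSeq on GRCm38.p6 and are written 5′ to 3′ on the strand of the gene. RefSeq windows were matched for 4 of the 5 genes, and those of Fgf21 (minus strand, chr7:45615491-45615740), Gdf15 (minus strand, chr8:70632457-70632706) and Adm2 (plus strand, chr15:89322470-89322719) are printed. Capitals mark matches to TGATGNAA and to ACGTG, each searched on both strands. TGATGNAA gives the composite letters read by ATF4 with C/EBP partners. ACGTG is a form of the core of hypoxia response elements, and other forms of that core were not searched.
Fgf21: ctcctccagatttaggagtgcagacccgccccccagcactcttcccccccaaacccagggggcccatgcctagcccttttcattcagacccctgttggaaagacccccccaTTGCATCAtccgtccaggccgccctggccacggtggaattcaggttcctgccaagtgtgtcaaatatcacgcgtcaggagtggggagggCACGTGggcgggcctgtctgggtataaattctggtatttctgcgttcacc
Gdf15: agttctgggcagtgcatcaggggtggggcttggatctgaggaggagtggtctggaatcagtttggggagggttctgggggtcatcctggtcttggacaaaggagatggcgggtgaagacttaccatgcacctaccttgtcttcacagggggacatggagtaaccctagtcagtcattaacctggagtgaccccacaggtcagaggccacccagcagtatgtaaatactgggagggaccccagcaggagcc
Adm2: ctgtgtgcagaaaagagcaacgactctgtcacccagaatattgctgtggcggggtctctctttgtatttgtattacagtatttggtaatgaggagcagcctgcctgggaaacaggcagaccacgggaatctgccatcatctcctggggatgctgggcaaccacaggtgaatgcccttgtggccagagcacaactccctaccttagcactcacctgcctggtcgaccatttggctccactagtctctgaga
The Fgf21 window held 1 match to TGATGNAA, on the reverse strand, 139 to 132 bases before the start. It also held ACGTG on both strands at a single palindromic place, 50 to 45 bases before the start. The printed Gdf15 and Adm2 windows and the Adm window held neither motif. The lack of ACGTG in these windows does not show that they were free of hypoxia response elements. TGACGTCA, the full cyclic AMP response element, was found in none of the matched windows. A second RefSeq start of Gdf15, 361 bases inside the first, had the same palindrome of ACGTG upstream and no TGATGNAA. Among 32851 RefSeq windows of the same length, 3.45% held TGATGNAA, 16.6% ACGTG and 1.55% TGACGTCA. These are matches of letters and not measured binding.

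Fgf21 (ENSMUSG00000030827, GRCm38 chromosome 7, 45613886 to 45615490) had 249, 513, 557 and 594 counts in transgenic hearts, against 6, 1, 3 and 4 counts in non-transgenic hearts. In CPM these were 5.65, 10.3, 9.42 and 12 in transgenic hearts and 0.0256 to 0.136 in non-transgenic hearts. The lowest transgenic heart, A, was therefore far above the highest non-transgenic heart, and the non-transgenic values rest on so few reads that their order carries no information. Mean levels were 9.34 ± 2.69 CPM in transgenic hearts and 0.0730 ± 0.0468 CPM in non-transgenic hearts (± SD, n = 4 per group). The 1913 against 14 summed counts gave a ratio of 129, with a 95% exact counting interval of 76.6 to 236 that covers counting error only. The fitted log2 difference was 6.94 (SE 0.37).

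Ostn (ENSMUSG00000052276, chromosome 16, 27307489 to 27351212, plus strand) had 530, 797, 545 and 778 counts in transgenic hearts, against 4, 4, 1 and 6 counts in non-transgenic hearts. Its mean was 13.2 ± 3.23 CPM in transgenic hearts and 0.0813 ± 0.0432 CPM in non-transgenic hearts (± SD, n = 4 per group). The ratio of summed counts, 2650 against 15, was 166 (95% exact counting interval 101 to 298), and the fitted log2 difference was 7.34 (SE 0.34). Here transgenic heart C was the lowest of its group at 9.22 CPM and heart B the highest at 15.9 CPM.

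Adm2 (ENSMUSG00000054136, chromosome 15, 89322720 to 89324731, plus strand) had 50, 101, 123 and 151 counts in transgenic hearts, and 0 counts in each of the 4 non-transgenic hearts. The transgenic hearts stood at 1.14, 2.02, 2.08 and 3.06 CPM, with a mean of 2.07 ± 0.785 CPM (SD, n = 4). The 425 against 0 summed counts put the lower limit of the ratio at 108 by the exact 95% interval used for Fgf21 and Ostn, and a floor of 3 counts over the whole non-transgenic group gave a ratio of 134.

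Gdf15 (ENSMUSG00000038508, chromosome 8, 70629393 to 70632456, minus strand) stood well above these genes in non-transgenic hearts, with 51 to 113 counts per library. It stood at 7.04, 17.1, 11.6 and 21.9 CPM in transgenic hearts, against 1.63, 1.31, 2.05 and 1.66 CPM in non-transgenic hearts. The groups did not overlap, and the transgenic hearts spread over a 3.12-fold range, the widest among the 5 genes. Means were 14.4 ± 6.49 CPM in transgenic hearts and 1.66 ± 0.303 CPM in non-transgenic hearts (± SD, n = 4 per group), with a fitted log2 difference of 3.11 (SE 0.33).

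Adm (ENSMUSG00000030790, chromosome 7, 110627661 to 110629820, plus strand) was expressed in all hearts, at levels that overlapped between groups. It stood at 8.1, 6.84, 7.68 and 6.82 CPM in transgenic hearts, against 5.60, 6.53, 7.81 and 5.54 CPM in non-transgenic hearts. The groups overlapped, since transgenic heart A exceeded non-transgenic heart D while the other 3 transgenic hearts were below it. Means were 7.36 ± 0.637 CPM in transgenic hearts and 6.37 ± 1.06 CPM in non-transgenic hearts (± SD, n = 4 per group), a fitted log2 difference of 0.21 (SE 0.14), or 0.31 (SE 0.13) without non-transgenic heart D. The highest Adm level of each group fell in the heart with the highest summed atrial markers, 3312 CPM in transgenic heart A and 655 CPM in non-transgenic heart D. Heart E was the lowest of each group for both. The hearts between stood in the opposite order. Transgenic heart B had more atrial marker CPM than C (309 against 101) but less Adm, and so had non-transgenic heart A against B (140 against 85.4). The part of atrial tissue in these Adm values was not tested.

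In all, 4 of the 5 genes were higher in all transgenic hearts than in all non-transgenic hearts, where 4.58% of all tested genes were (7.38% in either direction). For edgeR calls over all tested genes the shares were 1.25% in either direction, 1.01% higher and 0.242% lower. This contrast chose the genes, so the count is not evidence about them. In these bulk samples, fewer cells of a type and less RNA per cell cannot be told apart.

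**Figure D1:**
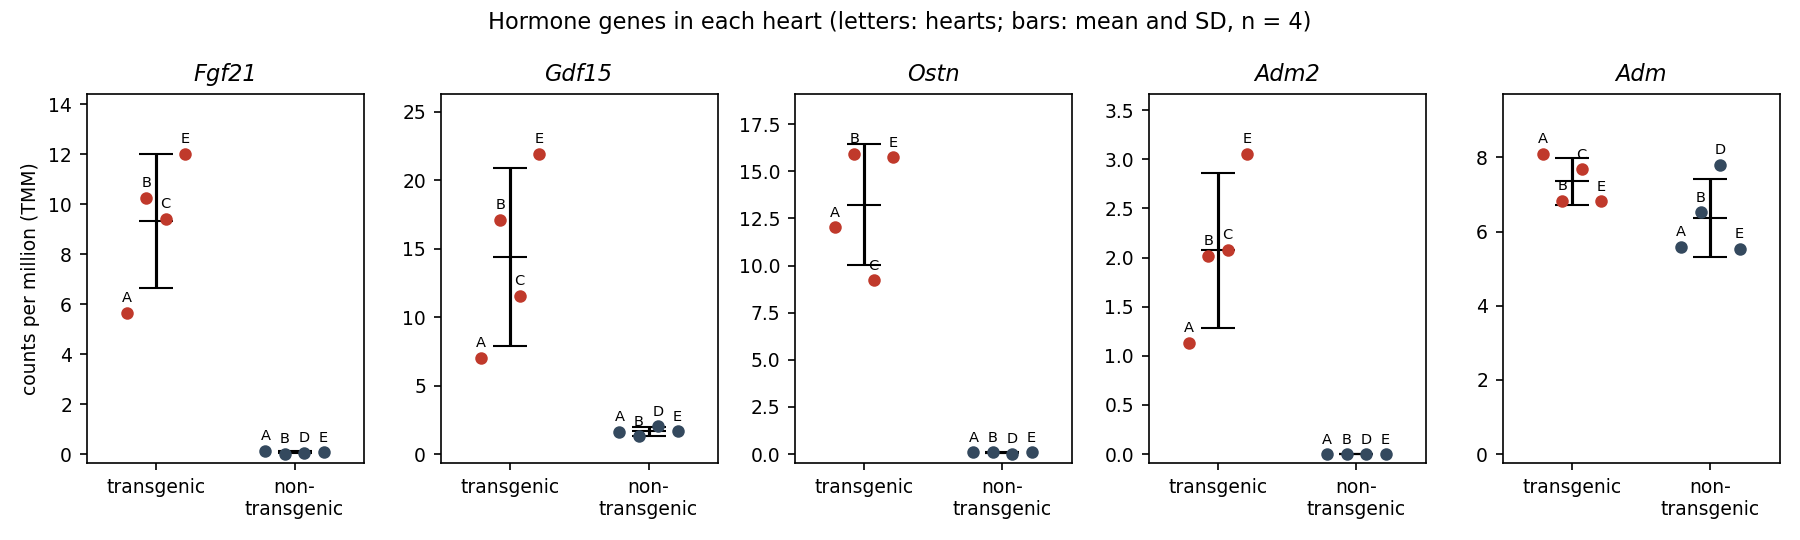
CPM (linear axis, TMM scaling) of the 5 hormone genes in each heart, transgenic hearts in red on the left and non-transgenic hearts in dark blue on the right of each panel; letters name hearts, and bars give the mean and SD of 4 hearts. Fgf21, Gdf15, Ostn and Adm2 do not overlap between groups, whereas Adm at 6.82 to 8.1 CPM in transgenic hearts overlaps with 5.54 to 7.81 CPM in non-transgenic hearts.

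Levels were compared between genes after division by exon length, as RPKM (CPM per kilobase of exon). In transgenic hearts the order of mean RPKM was Fgf21 at 9.82 ± 2.82, Ostn at 9.30 ± 2.27, Gdf15 at 7.78 ± 3.51, Adm at 4.55 ± 0.393 and Adm2 at 1.60 ± 0.605 (SD, n = 4). The ranges of Fgf21, Ostn and Gdf15 overlapped, and so did those of Gdf15 and Adm, whereas every Adm2 value lay below every Adm value. With the longest transcript as the length, Gdf15 averaged 9.33 RPKM and stood above Ostn, so the order of these genes depends on the length used. In non-transgenic hearts Adm was the highest at 3.93 ± 0.655 RPKM and Gdf15 followed at 0.896 ± 0.164 RPKM, with no overlap between them (SD, n = 4). Fgf21 and Ostn, at 0.0768 ± 0.0492 and 0.0572 ± 0.0304 RPKM (SD, n = 4), overlapped with each other.
Adm made up 11.4% to 23.9% of the summed CPM of the 5 genes in transgenic hearts, and 75.0% to 82.0% in non-transgenic hearts. The sum of all 5 was 34.0 to 59.6 CPM in transgenic hearts and 7.38 to 9.93 CPM in non-transgenic hearts.

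**Figure D2:**
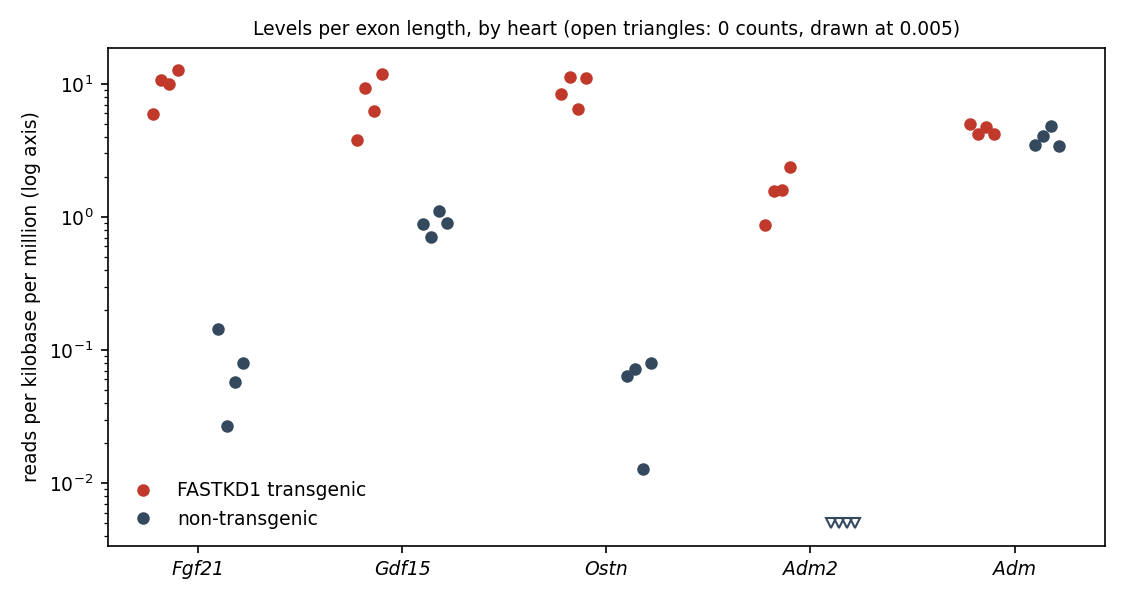
RPKM (log axis) of each hormone gene in every heart, with transgenic hearts in red left of non-transgenic hearts in dark blue. In transgenic hearts Fgf21, Ostn and Gdf15 overlap at 3.80 to 12.6 RPKM, and in non-transgenic hearts only Adm lies above 2 RPKM; open triangles, drawn at the foot of the axis, mark the 0 counts of Adm2.

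The hormone genes did not share one order among transgenic hearts. Heart A was the lowest for Fgf21, Gdf15 and Adm2, at 53.5%, 41.7% and 47.6% of the mean of hearts B, C and E. For Ostn the same heart stood at 88.3% of that mean and for Adm at 114%. Heart E was the highest for Fgf21, Gdf15 and Adm2. Transgene level did not follow the same order, since Fastkd1 stood at 10026 CPM in heart A, 9341 CPM in heart B, 8845 CPM in heart C and 11516 CPM in heart E. Without transgenic heart A and non-transgenic heart D, the fitted log2 differences were 6.98 (SE 0.30) for Fgf21, 3.45 (SE 0.25) for Gdf15, 7.01 (SE 0.33) for Ostn and 0.27 (SE 0.13) for Adm. For Adm2, where a fitted difference against 0 counts has no meaning, the transgenic mean was 2.39 CPM without heart A, and the non-transgenic hearts other than D also had 0 counts.

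**Figure D3:**
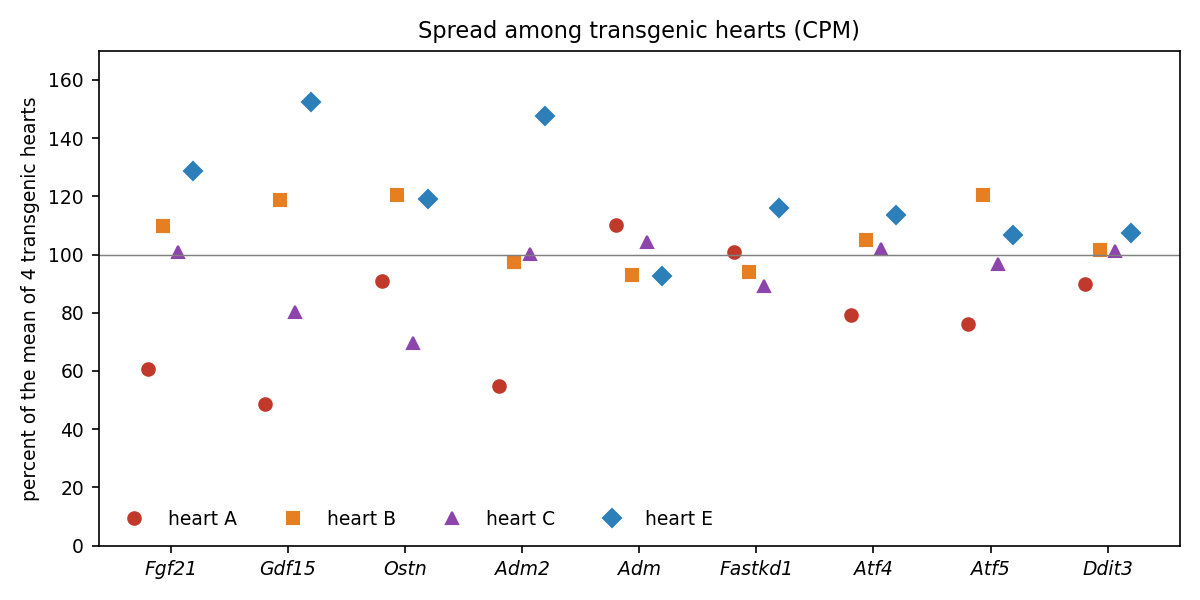
CPM of the hormone genes, of Fastkd1 and of 3 stress transcription factor genes in each transgenic heart, as a percent of the mean of the 4 transgenic hearts (linear axis from 0; symbols and colours name the hearts). Heart A lies lowest for Fgf21, Gdf15, Adm2, Atf4, Atf5 and Ddit3, and highest for Adm.

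Likeness between genes was measured as the root-mean-square difference in log2 CPM over the 8 hearts, with a prior count of 2 that damps differences at low counts. Each gene was centred on its own mean but not scaled. A small value therefore means a similar size of difference between hearts, and not only a similar order of hearts. Fgf21 and Gdf15 lay 1.75 apart, although transgenic heart A was the lowest and heart E the highest of the group for both. Among the 5 genes, Fgf21 and Adm2 were the closest pair at 0.54, followed by Fgf21 and Ostn at 0.62 and by Ostn and Adm2 at 0.80. Adm was 1.48 from Gdf15 and 2.74 to 3.36 from the other members. Mthfd2, a mitochondrial folate enzyme gene, was the tested gene nearest to Fgf21 (0.53), Ostn (0.73) and Adm2 (0.33). It stood at 92.6, 147, 122 and 148 CPM in transgenic hearts, against 1.59, 1.72, 2.54 and 2.63 CPM in non-transgenic hearts, with transgenic heart A again the lowest of its group. The amino acid transporter gene Slc7a3 and the cholesterol esterification gene Soat2 followed for Fgf21 (0.63 and 0.71) and, in the other order, for Ostn (1.09 and 0.83). For Adm2 the next were Slc7a3 (0.49) and the teneurin gene Tenm4 (0.52). Gdf15 had Brca2 (0.33), Atf5 (0.34) and the cystine transporter gene Slc7a11 (0.35), and Adm had Nap1l3 (0.06), Mtbp (0.06) and Clcn5 (0.07), genes that differed little between groups. These values describe the 8 libraries, which fall into groups by design, and are not tests.

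Transcription factor genes known to act on the hormone genes were tested, in a list that was also drawn up with earlier results known. Of 24 tested genes, 5 rose in transgenic hearts, 0 fell and 19 were not called, where 1.01% of all tested genes rose (edgeR quasi-likelihood test, adjusted p under 0.05). The list's median log2 fold change was 0.10, beside 0.0057 over all tested genes. Atf4, the factor translated when the kinases of the integrated stress response are active, had 128, 170, 165 and 183 CPM in transgenic hearts, against 64.5, 61.0, 66.2 and 71.9 CPM in non-transgenic hearts. Atf4 rose by 1.29 on the log2 scale (SE 0.12; adjusted p = 0.000265, edgeR), with all transgenic hearts above all non-transgenic hearts. Heart A was the lowest transgenic heart for Atf4 too.

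Atf5, a relative of Atf4 linked to mitochondrial stress, averaged 226 ± 42.0 CPM in transgenic hearts and 32.7 ± 7.38 CPM in non-transgenic hearts (± is the SD, n = 4 per group; log2 fold change 2.79, edgeR adjusted p = 3.73e-05). Ddit3, which encodes CHOP, averaged 33.7 ± 2.47 CPM in transgenic hearts and 17.8 ± 2.52 CPM in non-transgenic hearts (± is the SD, n = 4 per group; 0.92, edgeR adjusted p = 0.00233). Cebpg, a partner of ATF4, rose by 1.1 on the log2 scale (SE 0.12, edgeR adjusted p = 0.000785), and Atf6, a sensor of endoplasmic reticulum stress, by 0.84 (SE 0.08, edgeR adjusted p = 0.000386). These 5 calls were made in every alternative analysis that was run.

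Atf3, a stress-induced factor, stood at 62.2 CPM in transgenic heart A, 10.6 to 18.1 CPM in the other transgenic hearts and 8.60 to 17.4 CPM in non-transgenic hearts, and was not called (edgeR adjusted p = 0.465). The nuclear receptor gene Ppara, known to drive Fgf21 in fasted liver, averaged 44.1 ± 6.02 CPM in transgenic hearts and 43.2 ± 6.22 CPM in non-transgenic hearts (± is the SD, n = 4 per group; log2 fold change 0.03, edgeR adjusted p = 0.964). Trp53, known to act on Gdf15, had a log2 fold change of 0.21 (edgeR adjusted p = 0.796). The hypoxia factor genes Hif1a, Epas1 and Arnt, known to act on Adm, had log2 values of 0.15, -0.10 and 0.14 (adjusted p by edgeR of 0.484, 0.859 and 0.779). Hif1a was higher in every transgenic heart (63.7 to 67.9 CPM) than in any non-transgenic heart (57.8 to 60.4 CPM), as were 4.58% of all tested genes. The remaining genes were Cebpb, Ppargc1a, Rxra, Nr1d1, Egr1, Foxo1, Foxo3, Xbp1, Nfe2l2, Tfeb, Tfe3, Nr3c1 and Esrra, none of which was called.

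Genes that respond to hypoxia were tested beside Adm. Of 23 tested genes, 1 rose, 0 fell and 22 were not called (edgeR), where 1.25% of all tested genes were called. The median log2 fold change of the list was -0.09. The gene that rose was Ero1l, an oxidase of disulfide formation that is also known as a target of CHOP, with 19.0 to 20.9 CPM in transgenic hearts and 12.5 to 15.3 CPM in non-transgenic hearts (log2 fold change 0.51, SE 0.10, edgeR adjusted p = 0.0383). It was not called without transgenic heart B, C or E or without non-transgenic heart A or E (edgeR adjusted p of 0.117 to 0.212).

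Receptor genes for the hormones were tested to ask whether the heart's own receiving side differed. Of 12 tested genes, 0 rose, 0 fell and 1 had an unadjusted p under 0.05 (edgeR), while DESeq2 called 1 and limma-voom 0. Over all 13226 tested genes, edgeR called 1.25%, and 1421 had an unadjusted p under 0.05. The median log2 fold change of the 12 receptor genes was 0.09 and the range -0.47 to 0.44. Klb, Kl, Fgfr4, Gfral and Calcr were not analysed here, so the co-receptor of FGF21 and the receptor of GDF15 have no value. The FGF receptor genes Fgfr1, Fgfr2 and Fgfr3 averaged 2.26, 0.106 and 1.18 RPKM in transgenic hearts and 1.95, 0.0777 and 0.962 RPKM in non-transgenic hearts, with edgeR adjusted p of 0.798, 0.707 and 0.604. Ret, the kinase that pairs with GFRAL, averaged 0.525 RPKM in transgenic hearts and 0.469 RPKM in non-transgenic hearts (edgeR adjusted p = 0.922).

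The clearance receptor gene Npr3, to which osteocrin binds, had 111 CPM in transgenic heart A and 47.3 to 54.5 CPM in the other transgenic hearts, against 47.0 to 67.8 CPM in non-transgenic hearts (log2 fold change 0.17, SE 0.26, edgeR adjusted p = 0.881). The guanylyl cyclase receptor genes Npr1 and Npr2 had log2 fold changes of 0.15 and 0.03 (adjusted p by edgeR of 0.840 and 0.967). Calcrl, the receptor of both adrenomedullin peptides, averaged 40.4 ± 7.90 CPM in transgenic hearts and 42.9 ± 4.93 CPM in non-transgenic hearts (± is the SD, n = 4 per group; edgeR adjusted p = 0.894). Its partner genes Ramp1, Ramp2 and Ramp3 had log2 fold changes of -0.03, -0.02 and -0.06 (adjusted p by edgeR of 0.986, 0.975 and 0.943). Ackr3, a scavenging receptor of adrenomedullin, had 104, 105, 82.1 and 96.1 CPM in transgenic hearts, against 144, 151, 128 and 114 CPM in non-transgenic hearts. All transgenic hearts lay below all non-transgenic hearts for Ackr3, where 7.38% of all tested genes had no overlap in either direction. Its log2 fold change of -0.47 (SE 0.12) was not called by edgeR (adjusted p = 0.121) and was called by DESeq2 (adjusted p = 0.00930).

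**Figure D4:**
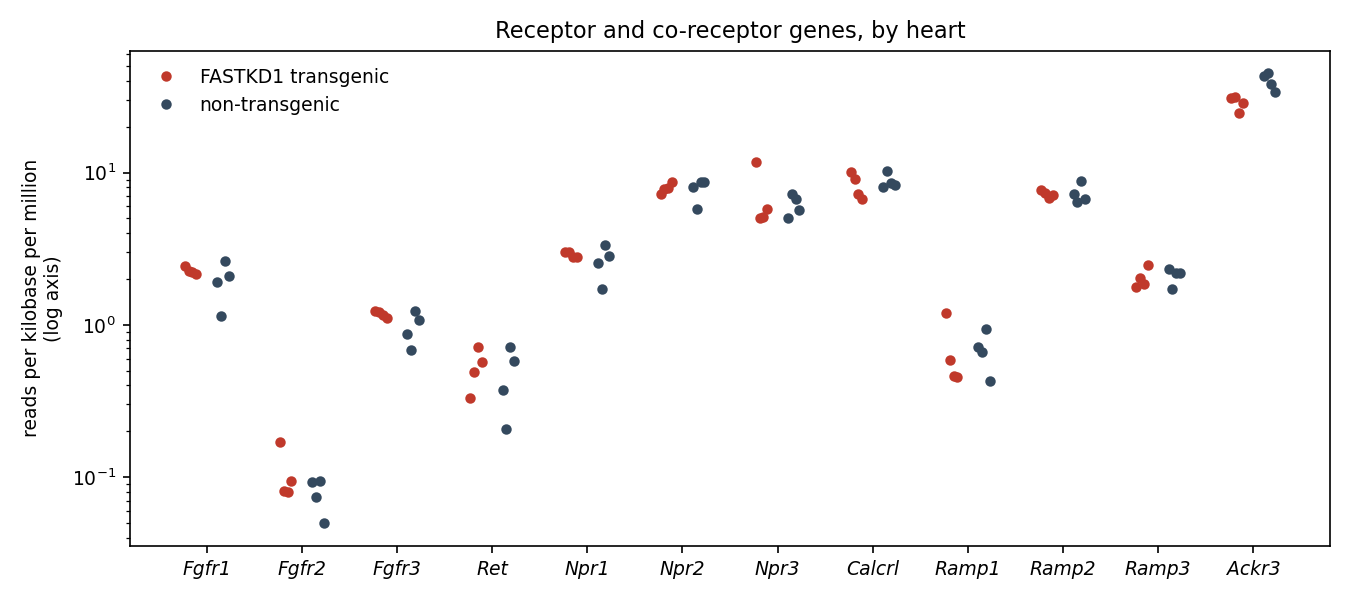
RPKM (log axis) of the 12 tested receptor and co-receptor genes in every heart, transgenic hearts in red left of non-transgenic hearts in dark blue. Transgenic heart A is the high point of Npr3, Fgfr2, Fgfr3 and Ramp1. Ackr3 is the only one of the 12 genes without overlap between groups, where 7.38% of all tested genes had none in either direction.

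Enzymes that mature or degrade the hormones showed 0 calls among 17 tested genes by edgeR, DESeq2 or limma-voom. Over all tested genes edgeR called 1.25%. An unadjusted p under 0.05 (edgeR) was held by 1421 of all 13226 tested genes and by 3 of this list. The smallest p-values belonged to Fap, a protease that cleaves FGF21 (log2 fold change -0.38, edgeR adjusted p = 0.311), the carboxypeptidase gene Cpe (0.30, edgeR adjusted p = 0.340) and Mbtps1, the Golgi protease that activates ATF6 (0.29, edgeR adjusted p = 0.444). Pam, which amidates adrenomedullin and is abundant in atria, had 2426 CPM in transgenic heart A and 741 to 983 CPM in the other 7 hearts. Its high value came from the heart with the highest atrial markers, and the part of atrial tissue in it was not tested.

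Genes downstream of the receptors were tested in 3 lists. For comparison, edgeR called 1.25% of all 13226 tested genes, and 1421 of them had an unadjusted p under 0.05. Of 16 FGF receptor response genes, 0 were called by edgeR, DESeq2 or limma-voom and 1 had an unadjusted p under 0.05. The smallest p-values were those of Ier3 (log2 fold change -0.34, edgeR adjusted p = 0.448), the transcription factor gene Etv5 (0.34, edgeR adjusted p = 0.629) and Phlda1 (-0.35, edgeR adjusted p = 0.655). Of 17 cyclic GMP pathway genes, 0 were called by edgeR or limma-voom, 2 by DESeq2, and 5 had an unadjusted p under 0.05. They were led by the phosphodiesterase gene Pde1c (0.43, edgeR adjusted p = 0.117), the phospholamban gene Pln (-0.57, edgeR adjusted p = 0.118) and the cyclic GMP kinase gene Prkg1 (0.28, edgeR adjusted p = 0.415). Without non-transgenic heart B, edgeR called Pde1c (0.50, adjusted p = 0.0318), and with library totals it called Pln (-0.47, adjusted p = 0.0326). Of 22 cyclic AMP pathway genes, 0 were called by edgeR, DESeq2 or limma-voom and 2 had an unadjusted p under 0.05. Rapgef4, a cyclic AMP sensor gene, had -0.27 (edgeR adjusted p = 0.256), and the phosphodiesterase genes Pde3a and Pde4b had -0.23 and -0.24 (adjusted p by edgeR of 0.437 and 0.533). The nuclear receptor gene Nr4a1 had a log2 fold change of -1.02 (edgeR adjusted p = 0.643), and edgeR called it without transgenic heart A and non-transgenic heart D (-2.18, adjusted p = 0.0199). A p that misses the threshold does not show that these genes were alike in both groups.

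Other hormone and cytokine genes were tested to set the 5 genes beside other secreted factors. Of 37 tested genes, 1 rose, 0 fell and 36 were not called (edgeR), where 1.25% of all tested genes were called. The median log2 fold change of the list was -0.02. Tgfb2, a TGF-beta ligand, averaged 23.0 ± 2.63 CPM in transgenic hearts and 14.0 ± 2.37 CPM in non-transgenic hearts (± is the SD, n = 4 per group; log2 fold change 0.71, SE 0.14, edgeR adjusted p = 0.0342). It was not called without transgenic heart B, C or E or without non-transgenic heart A, B or E (edgeR adjusted p of 0.0684 to 0.164). With library totals in place of TMM scaling Tgfb2 was not called either (edgeR adjusted p = 0.144), and the 1 called gene of the list was the interleukin gene Il15, at -0.61 (edgeR adjusted p = 0.0226). Without non-transgenic heart D, Il15 was called as well, at -0.82 (edgeR adjusted p = 0.0209). Without transgenic heart A, Il15 (-0.80, edgeR adjusted p = 0.0442), Fgf2 (-0.68, edgeR adjusted p = 0.0366) and the angiopoietin gene Angpt1 (-1.45, edgeR adjusted p = 0.00691) were called.

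**Figure D5:**
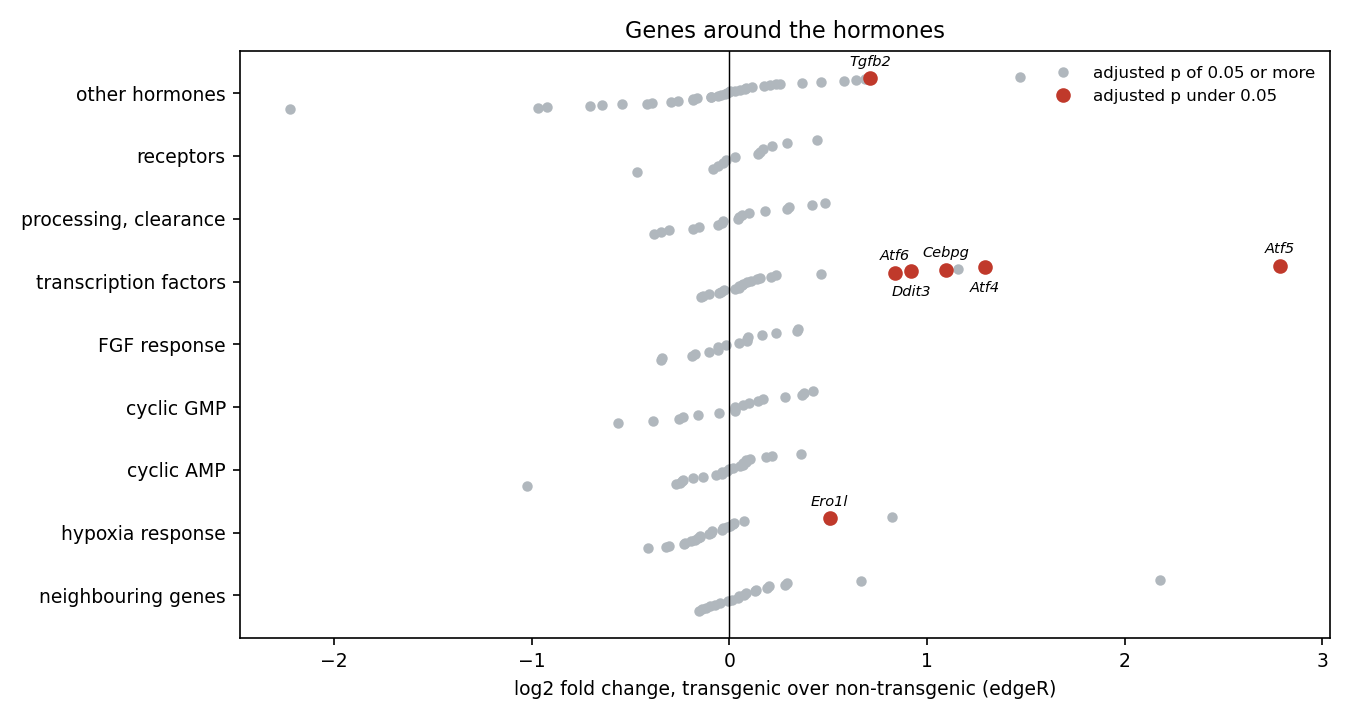
Log2 fold change of transgenic over non-transgenic hearts (edgeR) for every tested gene of the 8 lists and for the 20 neighbouring genes; each point is a gene, red where the adjusted p is under 0.05. Calls stand among the transcription factors (5 genes), with Tgfb2 and Ero1l as the other red points.

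Genes next to the hormone genes on the chromosome were tested as a measure that the choice of genes did not use. The 2 nearest tested genes on each side gave 20 genes, 7.41 to 1202 kb away. None was called by edgeR or limma-voom (2 with an unadjusted p under 0.05), and DESeq2 called P3h2. Among all 13226 tested genes, edgeR called 1.25%, and 1421 had an unadjusted p under 0.05. The closest to Fgf21, Rasip1 (12 kb) and A030001D20Rik (20.2 kb), had log2 fold changes of -0.14 and -0.01. The closest to Gdf15, Lrrc25 (7.91 kb) and Pgpep1 (14.0 kb), had 0.04 and 0.14, and the closest to Adm2, Sbf1 (7.41 kb) and Lmf2 (26.3 kb), had 0.19 and 0.07. Next to Ostn, Ccdc50 (37.7 kb) had 0.13, and next to Adm, Sbf2 (12.7 kb) had 0.20 (edgeR adjusted p = 0.367). The remaining neighbours had log2 fold changes of -0.16 to 0.67, apart from Fgf12, 809 kb from Ostn, with 69.8 CPM in transgenic heart A and 0.514 to 9.53 CPM in the other 7 hearts (log2 fold change 2.18, edgeR adjusted p = 0.569). P3h2, 1202 kb from Ostn, had 0.67 (edgeR adjusted p = 0.104), and was called without non-transgenic heart D (0.81, edgeR adjusted p = 0.0268).

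Markers of other tissues known to make these hormones were checked by list. Of 10 liver markers, only Ahsg was measured, at 1.76 to 9.74 CPM in transgenic hearts and 2.71 to 4.0 CPM in non-transgenic hearts, while Alb and the other 8 were not analysed here. Of 18 skeletal muscle and bone markers, Acta1, Ckm and Sost were measured, with summed levels of 1455 to 2308 CPM in transgenic hearts and 1729 to 2630 CPM in non-transgenic hearts. Heart muscle also expresses Acta1 and Ckm. Mean log2 CPM of the 10 cardiomyocyte markers was 12.34 ± 0.04 in transgenic hearts and 12.65 ± 0.09 in non-transgenic hearts, with no overlap (± is the SD, n = 4 per group; exact permutation p = 0.0286, two-sided and the smallest that 4 against 4 allows; 0.129 after adjustment over 9 lists). Mural cell markers stood at 5.63 ± 0.08 in transgenic hearts and 5.42 ± 0.10 in non-transgenic hearts, on 9 of 10 markers (exact permutation p = 0.0286, 0.129 after adjustment). With library totals in place of TMM scaling, the mural p was 0.114. Endothelial, fibroblast, immune, adipocyte, atrial, liver and muscle lists had exact permutation p of 0.229 to 0.886 before adjustment. The part of cell composition in the hormone gene values was not tested.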

How the data were processed

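RNA was sequenced from 8 mouse hearts, 4 transgenic and 4 non-transgenic. The deposited values are raw read counts per Ensembl gene, with 1 library per file; the tools named per the submitters' processing notes are cutadapt 1.15 and TopHat2, and the genome builds GRCm38 and mm10. How reads were counted, on which annotation and with which strand setting is not given in the sources used here. In all, counts cover 13227 genes, each with at least 1.003 CPM in its second-highest library, so rarer genes were not analysed here. Symbols, coordinates and exon lengths were read from the GENCODE M21 annotation (GRCm38), which lacks 12 of the identifiers.

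Counts were fitted over all genes with edgeR 4.0.16 in R 4.3.3 (filterByExpr, TMM scaling, quasi-likelihood F test, two-sided, Benjamini-Hochberg adjustment, threshold 0.05), without a block. Standard errors were derived as log2 fold change over √F and depend on the method. For Fgf21 the SE was 0.37, against 0.46 with DESeq2 and 0.54 with limma-voom. For Ostn it was 0.34, against 0.43 and 0.52, and for Gdf15 0.33, against 0.31 and 0.41. Log2 CPM of single libraries used a prior count of 2, and RPKM is CPM per kilobase of merged exons. Each marker list got an exact permutation test on its mean log2 CPM (70 arrangements, two-sided). The 95% counting intervals are exact and reflect counting error alone. No pair of libraries looked like a repeat deposit (lowest chi-square per df 19.7). DESeq2 1.42.0, limma 3.58.1, other scalings and filters and leaving out libraries served as alternatives.

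The members and lists were chosen with earlier results of these data known. Named by rule were the members, all tested receptor and transcription factor genes, the called genes of each other list (or its 3 smallest p-values), the neighbours and the 3 genes most like each member. Pam, Il15, Fgf2, Angpt1, Nr4a1, Fgf12's single hearts and the genes named under single alternatives were chosen after their values were seen.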

Additional observations from a re-analysis of the deposited data

Results flagged for a closer look

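In groups of 4 hearts, a heart was looked at again when its gap to the nearest other heart took up more of the group's range than Dixon's 95% critical value. Chance alone marks about 1 in 20 groups, and 53 groups were checked, covering the hormone genes, Fastkd1, the receptor genes and the marker lists. None of the 5 hormone genes had such a heart in either group.

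Fastkd1 stood at 192 CPM in non-transgenic heart D, where the other non-transgenic hearts had 26.3 to 33.8 CPM. The mean log2 CPM of fibroblast markers was 6.70 in the same heart and 6.27 to 6.33 in the others of its group. The mean log2 CPM of mural markers was 5.74 in transgenic heart C and 5.58 to 5.60 in the other transgenic hearts. Transgenic heart A had 1.75 CPM of Fgfr2, where the other transgenic hearts had 0.83 to 0.97 CPM. It also had 111 CPM of Npr3, where the others had 47.3 to 54.5 CPM. The same heart had the highest summed atrial markers of the series, and the part of atrial tissue in the Npr3 and Fgfr2 values was not tested.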

How the results depend on the processing

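Over all genes 165 were called, and leaving out 1 library gave 112 to 218. The count was 408 with DESeq2 (249 higher, 159 lower, against 133 and 32 with edgeR) and 276 without both transgenic heart A and non-transgenic heart D, a choice made after seeing the data; all 165 were among the DESeq2 calls. For the list counts, DESeq2 called 3 other hormone genes, 1 receptor gene, 2 cyclic GMP genes, 3 hypoxia genes and 1 neighbour. Without transgenic heart A and non-transgenic heart D the counts were 3 other hormone genes, 1 cyclic AMP gene (Nr4a1), 2 hypoxia genes and 1 neighbour. With library totals, 1 cyclic GMP gene (Pln) and 0 hypoxia genes were called, and with at least 1 CPM in 4 libraries 0 hypoxia genes. Leaving out 1 library gave 0 to 4 other hormone genes, 0 to 2 hypoxia genes, 0 to 1 cyclic GMP genes and 0 to 1 neighbours. The transcription factor count was 5 throughout. The cause of these changes was not tested.

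The fitted log2 differences of Fgf21 and Ostn were 6.36 and 6.79 with a prior count of 2, which shrinks genes with few reads by construction; leaving out 1 library gave 6.72 to 7.36 for Fgf21, 6.96 to 7.58 for Ostn, 2.82 to 3.33 for Gdf15 and 0.13 to 0.31 for Adm. On the longest transcript, means in transgenic hearts were 5.30 RPKM for Adm and 9.33 RPKM for Gdf15, against 4.55 and 7.78 on merged exons. Title letters A, B and E occur in both groups, and the deviations of same-letter hearts from their group means correlated at 0.30, -0.08 and 0.36. Transgenic hearts A and E matched the non-transgenic heart of their own letter best, and transgenic heart B matched non-transgenic heart A best. Whether the letters pair the hearts was not tested. With the letter as a replicate block 124 genes were called, with 1 cyclic AMP gene (Nr4a1, -1.37, edgeR adjusted p = 0.0266) and 0 hypoxia genes among the lists. Depth limits the non-transgenic values of Fgf21, Ostn and Adm2, which rest on 14, 15 and 0 reads.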
